A study of Homo sapiens with 6 samples.

Results

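Histone deacetylase (HDAC) genes encode the enzymes that take acetyl groups off lysines of histones and other proteins. The 10 genes described here, HDAC1 to HDAC9 and HDAC11, were chosen by name and were 10 of the 20007 protein-coding genes in the annotation. For each of them the H3K27ac peaks were counted in the promoter window, which extended 2500 bases up- and downstream of the canonical transcript start, and in the gene region, which was the gene body plus 10 kb on each side. H3K27ac, the acetylation of lysine 27 of histone H3, marks active promoters and enhancers and was mapped by CUT&Tag, where a transposase tethered through an antibody cuts the DNA next to the marked histone.

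Cells came from 2 lines of human acute myeloid leukemia (AML): Kasumi-1 (written Kasumi in the labels), which carries the RUNX1::RUNX1T1 fusion, and MV4-11, which carries a KMT2A fusion. Each line had a control library (NC in the sample names, given as untreated in the treatment label and described in the study as a control short hairpin) and a library after ANP32B knockdown by a short hairpin (sh-ANP32B), and which of the study's hairpins against ANP32B was used for CUT&Tag is not given in the sources used here. Replicates were merged before peaks were called, so each of the 4 groups had 1 peak list with no replicate check, and every difference below describes these libraries with no test. The IgG libraries, 1 for each line, are not analysed here.

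HDACs of class I (HDAC1, HDAC2, HDAC3 and HDAC8) and class IIa (HDAC4, HDAC5, HDAC7 and HDAC9), HDAC6 of class IIb and HDAC11 of class IV all need zinc, while the sirtuins need NAD. HDAC1 and HDAC2 work within the NuRD, SIN3 and CoREST complexes and HDAC3 within the NCoR complex, whereas class IIa enzymes shuttle between nucleus and cytoplasm and bind MEF2 factors. In AML, fusion proteins such as RUNX1::RUNX1T1 recruit HDAC-containing corepressor complexes to their targets.

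The lists gave peak positions and widths only, without read totals or peak heights, so the depth of the libraries is unknown. They held 22768 peaks in the Kasumi-1 control, 23878 in Kasumi-1 sh-ANP32B, 24523 in the MV4-11 control and 22136 in MV4-11 sh-ANP32B, and the smallest peak was 357, 354, 289 and 275 bases wide in that order. The promoter of ANP32B, the targeted gene, was covered over 3447 and 3432 bases in the control and knockdown libraries of Kasumi-1 and over 3433 and 2631 bases in the control and knockdown libraries of MV4-11, which does not check the knockdown, since a hairpin acts on the transcript. Of 4 myeloid markers, 3 had a promoter peak in both Kasumi-1 libraries (SPI1, CEBPA and CD33), 2 in the MV4-11 control (SPI1 and CEBPA) and 1 in MV4-11 sh-ANP32B (SPI1), and MPO had none in any library. The KMT2A fusion targets HOXA9 and MEIS1 had promoter peaks in all 4 libraries, HOXA9 over 4335 and 4707 bases in the Kasumi-1 libraries and over 769 and 659 in the MV4-11 libraries, so it did not mark MV4-11, and none of the 3 genes listed for Kasumi-1 (RUNX1T1, POU4F1 and KIT) had one. The lymphoid markers PAX5 and CD3E had no promoter peak in any library, and of 2 erythroid markers KLF1 had one in 3 libraries and GATA1 in none.

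The number of HDAC genes with a promoter peak differed by library. A promoter peak was present for 7 of the 10 in the Kasumi-1 control, where 47.7% of all protein-coding genes had one, and for the same 7 (HDAC1, HDAC2, HDAC3, HDAC5, HDAC6, HDAC7 and HDAC8) in Kasumi-1 sh-ANP32B, where 45.3% had one. MV4-11 NC had promoter peaks at 5 of these (HDAC1, HDAC2, HDAC3, HDAC6 and HDAC7) against 35.8% of all genes, and MV4-11 sh-ANP32B at 3 (HDAC2, HDAC3 and HDAC6) against 28.6%. Peaks covered 14229 promoter bases over the 10 genes in the Kasumi-1 control, 12917 in Kasumi-1 sh-ANP32B, 6310 in the MV4-11 control and 3596 in MV4-11 sh-ANP32B. A peak anywhere in the gene region was present for 7, 7, 7 and 8 of the 10 in the same order, against 61.5%, 60.2%, 55.4% and 49.4% of all genes. HDAC4, HDAC9 and HDAC11 had no promoter peak in any library, as did 50.1% of all genes. The sum was thus largest in the Kasumi-1 control and smallest in MV4-11 sh-ANP32B, and in each line lower after knockdown. As a ratio of knockdown to control it was 0.908 in Kasumi-1 and 0.570 in MV4-11, against 0.960 and 0.721 over all genes. Nearly all of the Kasumi-1 difference lay at HDAC1, which differed by -1299 bases. Of the 7 genes with promoter bases in Kasumi-1, 5 were lower and 2 higher after knockdown.

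**Figure D1:**
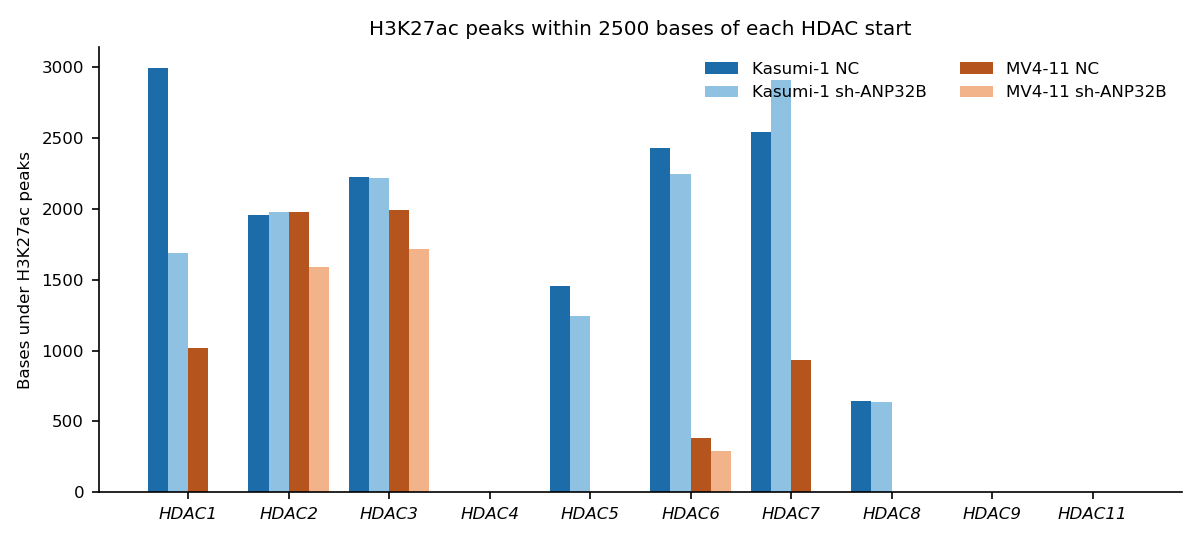
Bases under H3K27ac peaks within 2500 bases of the canonical start (y axis, linear from 0) for each HDAC gene (x axis), with 1 bar for each of the 4 libraries and no error bars because each group had 1 list. HDAC2 and HDAC3 keep bars of 1588 to 2222 bases in every library, HDAC1 and HDAC7 have no bar in MV4-11 sh-ANP32B, and HDAC4, HDAC9 and HDAC11 have no bar at all.

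The bases just upstream of the start are shown for the 5 genes in which a stretch of at least 100 of the last 250 bases before the canonical start lay in no annotated exon. They let the promoters with peaks in every library (HDAC2 and HDAC3), those that lost their peak in MV4-11 (HDAC1 and HDAC7) and one with no peak (HDAC9) be read side by side. Sequences are from RefSeq (GRCh38.p14, the build of hg38), on the strand of the gene, and capitals mark the GC box (GGGCGG or CCGCCC on the other strand) and the CCAAT box (CCAAT or ATTGG on the other strand). HDAC1 spans chr1:32291833-32292082 on the plus strand, HDAC2 chr6:113971158-113971398 on the minus strand, HDAC3 chr5:141636850-141636949 on the minus strand, HDAC7 chr12:47819981-47820153 on the minus strand and HDAC9 chr7:18495499-18495709 on the plus strand.
HDAC1: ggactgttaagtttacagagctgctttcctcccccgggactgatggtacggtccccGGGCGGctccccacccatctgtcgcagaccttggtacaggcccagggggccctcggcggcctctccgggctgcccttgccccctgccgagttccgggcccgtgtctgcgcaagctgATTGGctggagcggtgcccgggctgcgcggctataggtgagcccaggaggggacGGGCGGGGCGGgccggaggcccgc
HDAC2: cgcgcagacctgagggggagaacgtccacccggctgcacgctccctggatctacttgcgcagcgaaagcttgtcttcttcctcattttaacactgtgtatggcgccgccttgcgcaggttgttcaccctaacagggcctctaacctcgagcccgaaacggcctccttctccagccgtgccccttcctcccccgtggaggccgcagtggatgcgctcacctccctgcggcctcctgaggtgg
HDAC3: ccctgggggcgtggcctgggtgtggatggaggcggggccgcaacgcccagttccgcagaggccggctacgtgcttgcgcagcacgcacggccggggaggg
HDAC7: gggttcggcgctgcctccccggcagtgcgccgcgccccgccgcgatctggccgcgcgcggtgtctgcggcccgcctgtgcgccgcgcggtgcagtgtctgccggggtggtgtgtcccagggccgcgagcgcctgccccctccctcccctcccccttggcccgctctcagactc
HDAC9: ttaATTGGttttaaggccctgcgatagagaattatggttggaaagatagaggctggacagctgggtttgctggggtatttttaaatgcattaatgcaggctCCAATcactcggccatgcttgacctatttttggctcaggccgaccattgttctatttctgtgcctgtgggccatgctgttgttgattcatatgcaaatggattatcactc

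A RefSeq promoter began at the canonical start for 8 of the 10 genes, all but HDAC4 and HDAC5. Within the 250 bases before the start, a GC box occurred 5 times at HDAC11, 3 times at HDAC1, where a pair overlaps by 1 base, 2 times at HDAC6 and once at HDAC3 (in the exonic part not shown), and not at HDAC2, HDAC7, HDAC8 or HDAC9. Over 14570 promoters of the same length, 60.3% held a GC box. A CCAAT box occurred 2 times each at HDAC6 and HDAC9 and once at HDAC1, and in 35.3% of all promoters. Neither a TATA box (TATAAA or TTTATA, in 9.16% of promoters) nor the E-box CACGTG (7.99%) was found in any of the 8. The GC box therefore occurred both at promoters with a peak and at HDAC11, which had none, and was missing at HDAC2, which had a peak in every library.

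Base composition separated HDAC9 from the other genes. Within 500 bases to each side of the canonical start the GC content was 44.3% at HDAC9 and 50.5% at HDAC8, and between 62.5% (HDAC1) and 76.8% (HDAC4) at the other 8, against a median of 61.3% over all genes. The ratio of observed to expected CpG was 0.370 at HDAC9, 0.675 at HDAC8 and 0.728 to 0.951 at the others, against a median of 0.80 over the 5181 genes with a promoter peak in all 4 libraries and of 0.549 over the 10021 genes with none. HDAC4 and HDAC11, without a peak, had ratios of 0.951 and 0.782, so that lack of a peak went with few CpGs at HDAC9 but not at these 2 genes.

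Among class I genes, HDAC2 and HDAC3 carried promoter peaks in all 4 libraries, whereas HDAC1 had none in MV4-11 sh-ANP32B and HDAC8 none in either MV4-11 library. A promoter peak in all 4 libraries was found for 25.9% of all genes, and for HDAC2, HDAC3 and HDAC6 among the 10.

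HDAC1, a catalytic subunit of NuRD, SIN3 and CoREST, lies on chromosome 1 from 32292083 to 32333635 on the plus strand (ENSG00000116478.12). Its promoter was covered over 2990 bases in the Kasumi-1 control, 1691 in Kasumi-1 sh-ANP32B, 1021 in the MV4-11 control and 0 in MV4-11 sh-ANP32B. Within each line the sh-ANP32B library was the lower. In Kasumi-1 the knockdown library differed by -1299 bases, 1.77-fold lower, from a peak that reached from 1179 bases upstream to 1810 downstream of the start to one from 510 upstream to 1180 downstream, so that both edges lay closer to the start. Within 1000 bases of the start the difference was -490 bases and under 1.5-fold. HDAC1 was the 1 of 7 genes with promoter bases in Kasumi-1 that were lower by at least 1.5-fold, against 14.6% of all genes, none of the 7 was higher by that fold, against 4.86%, and none lost every promoter peak, against 6.79%. By width, the peak stood at the 91.0th percentile of its list in the Kasumi-1 control, the 73.5th in Kasumi-1 sh-ANP32B and the 61.3rd in the MV4-11 control. In MV4-11 sh-ANP32B the nearest peak to the start was 44.8 kb away, past the 3′ end of the gene.

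The region of HDAC1 reaches the promoter of MARCKSL1 downstream, and its sum includes peaks there. Peaks covered 4082 bases of the region in the Kasumi-1 control (3 peaks), 1691 in Kasumi-1 sh-ANP32B (1 peak), 2163 in the MV4-11 control (3 peaks) and 1883 in MV4-11 sh-ANP32B (2 peaks). In Kasumi-1 the region was 2.41-fold lower after knockdown, HDAC1 again being the 1 gene of 7 past 1.5-fold against 9.93% of all genes (none was higher, against 5.94%), and the MARCKSL1-side peaks of 389 and 703 bases in NC had no overlapping peak in sh-ANP32B. In MV4-11 sh-ANP32B all 1883 bases lay in the downstream flank and none in the gene body, which held 404 bases in the MV4-11 control. With flanks of 50 kb the Kasumi-1 difference no longer passed 1.5-fold, and scaled to covered length the MV4-11 difference changed from -280 to 126 bases.

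HDAC2, the close paralog of HDAC1 in the same complexes, lies on chromosome 6 from 113933028 to 114011308 on the minus strand (ENSG00000196591.12). Its only peak, over the start, covered 1953 bases in the Kasumi-1 control, 1980 in Kasumi-1 sh-ANP32B, 1978 in the MV4-11 control and 1588 in MV4-11 sh-ANP32B. The first 3 libraries were within 27 bases of each other, and MV4-11 sh-ANP32B was the lowest, with a difference of -390 bases from its control (a ratio of 0.803). With bases scaled to the covered length of each library, the Kasumi-1 difference changed from 27 to -26.5 bases. The edges in the first 3 libraries lay 758 to 788 bases upstream and 1189 to 1203 downstream of the start, and in MV4-11 sh-ANP32B 464 upstream and 1123 downstream, so that the narrower peak differed mostly on its upstream side. The peak ranked between the 78.5th and the 86.7th percentile by width in the 4 lists.

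HDAC3, the deacetylase of the NCoR complex, lies on chromosome 5 from 141620876 to 141636849 on the minus strand (ENSG00000171720.10) and shares its promoter window with RELL2, which starts upstream on the other strand. Promoter bases were 2222 in the Kasumi-1 control, 2218 in Kasumi-1 sh-ANP32B, 1991 in the MV4-11 control and 1717 in MV4-11 sh-ANP32B. The Kasumi-1 libraries differed by 4 bases. In both of them 1 peak ran from 1716 and 1712 bases upstream to 505 bases downstream. In MV4-11 NC the peak over the start covered 1840 bases from 1580 upstream to 259 downstream, beside part of a 400-base peak at the downstream edge of the window, and in MV4-11 sh-ANP32B there were instead a peak of 1077 bases over the start and a separate one of 640 bases over RELL2, with its edges at -1616 and -977 bases from the HDAC3 start. The MV4-11 difference of -274 bases became 38 bases when peaks at most 1000 bases apart were joined and 95.4 when scaled to covered length.

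In the region of HDAC3, peaks covered 4459, 4999, 4398 and 2818 bases in the Kasumi-1 control, Kasumi-1 sh-ANP32B, MV4-11 NC and MV4-11 sh-ANP32B, in 3, 4, 5 and 4 peaks. Knockdown libraries thus differed from their controls by 540 bases in Kasumi-1 and by -1580 bases in MV4-11, a 1.56-fold lower value in the latter. HDAC3 was the 1 gene of 8 with region bases lower by at least 1.5-fold in MV4-11, against 40.5% of all genes. It did not pass that fold when scaled to covered length (-1032 bases), with no flank or with flanks of 50 kb. Every library had a peak in intron 14, near the 3′ end, of 896, 1365, 815 and 641 bases in the same order, and peaks at the DIAPH1 promoter downstream.

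HDAC8, a class I enzyme outside these complexes that deacetylates the cohesin subunit SMC3, lies on chromosome X from 72329516 to 72573101 on the minus strand (ENSG00000147099.21). Its promoter held 644 bases in the Kasumi-1 control, 635 in Kasumi-1 sh-ANP32B and 0 in both MV4-11 libraries. The Kasumi-1 peaks were narrow, at the 29.4th and 31.0th percentile by width, and lay from 51 bases upstream to 592 downstream and from 177 upstream to 457 downstream of the start. The promoter window of the annotated gene ENSG00000285547 overlaps that of HDAC8, so the peak cannot be assigned to one of them. In MV4-11 the nearest peak to the start was 296 kb away in NC, outside the gene, and 45.1 kb away in sh-ANP32B, a peak of 340 bases in intron 4.

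**Figure D2:**
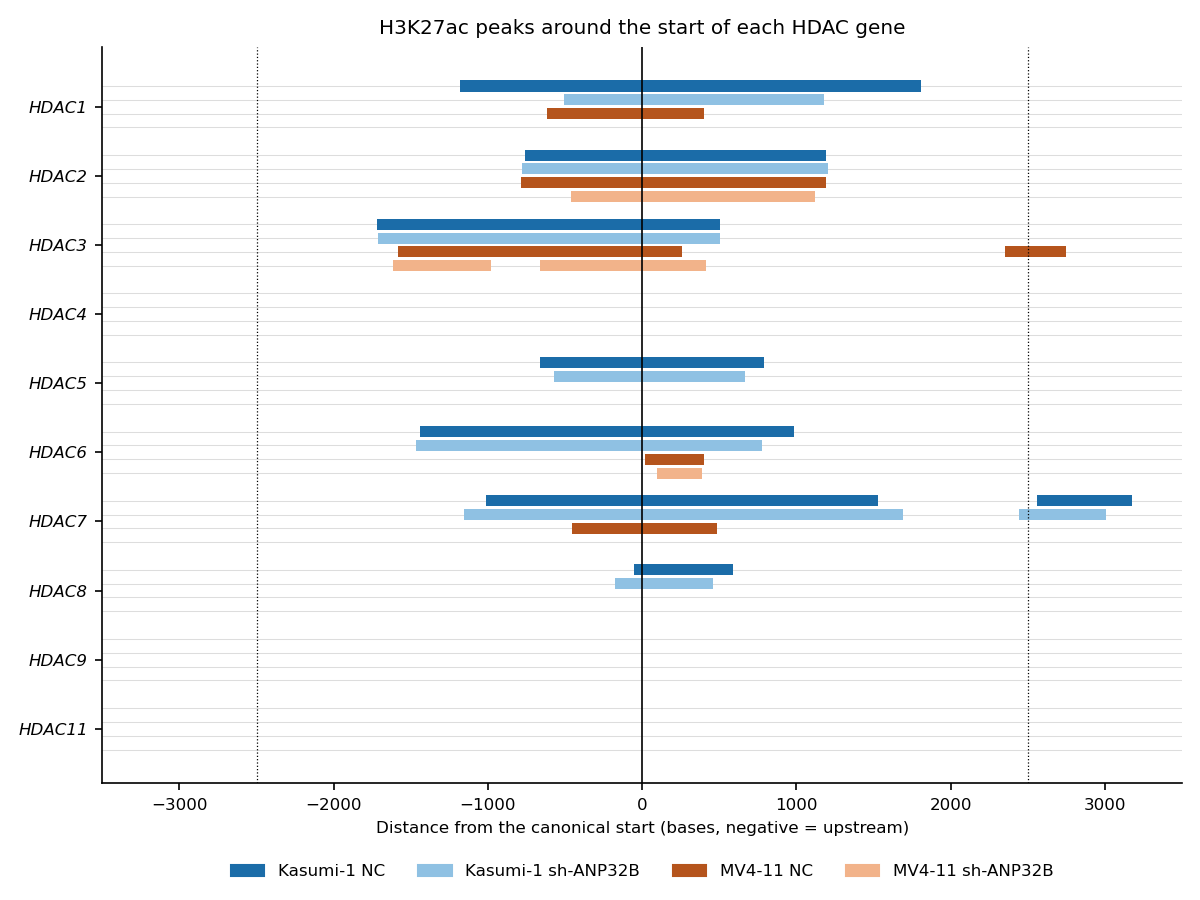
H3K27ac peaks (bars) drawn by distance from the canonical start in bases (x axis, negative upstream) for each HDAC gene, with 1 line for each library in the order of the colour key and dotted lines at the edges of the 2500-base window. The HDAC1 peak is shorter on both sides after knockdown in Kasumi-1, the HDAC3 peak is in 2 pieces in MV4-11 sh-ANP32B, and the MV4-11 peaks of HDAC6 begin downstream of the start.

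Class IIa held HDAC7 and HDAC5, with 3 to 7 peaks in their regions in each library, HDAC9, with peaks in MV4-11 only and far from its start, and HDAC4, with none. HDAC5, which represses MEF2 target genes, lies on chromosome 17 from 44076746 to 44123702 on the minus strand (ENSG00000108840.16). Its promoter was covered over 1454 bases in the Kasumi-1 control and 1243 in Kasumi-1 sh-ANP32B, and over 0 in both MV4-11 libraries. The Kasumi-1 libraries differed 1.17-fold. In MV4-11 the nearest peak to the start lay 11958 bases (NC) and 12627 bases (sh-ANP32B) into the gene. Region bases were 11625 and 10253 in the control and knockdown libraries of Kasumi-1, with 6 peaks each, and 3089 and 2349 in the control and knockdown libraries of MV4-11, with 4 and 3 peaks.

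The peaks within HDAC5 stood at like places in both lines and were narrower in MV4-11. Near exon 3, about 12 kb from the start, they were 3639 bases wide in the Kasumi-1 control, 3329 in Kasumi-1 sh-ANP32B, 703 in the MV4-11 control and 779 in MV4-11 sh-ANP32B. In intron 3, 26.7 to 27.6 kb from the start, they were 3044, 3105, 816 and 737 bases wide in the same order. At the 3′ end, where G6PC3 overlaps, they were 1991, 1482, 1268 and 833 bases wide. The intragenic peaks of the Kasumi-1 libraries were thus the wider in all 3 places, and the difference between the lines was smallest at the 3′ end. The peak near exon 3 lay over 1 further transcript start of HDAC5 in both Kasumi-1 libraries and the MV4-11 control. In MV4-11 sh-ANP32B it lay over none. Other peaks of the region lay at the promoters of G6PC3 (Kasumi-1 only) and LSM12 (not in MV4-11 sh-ANP32B).

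HDAC7, a class IIa enzyme of lymphoid and endothelial cells, lies on chromosome 12 from 47782722 to 47833132 on the minus strand (ENSG00000061273.18), with its canonical start at 47819903. Promoter bases were 2540 in the Kasumi-1 control, 2907 in Kasumi-1 sh-ANP32B, 936 in the MV4-11 control and 0 in MV4-11 sh-ANP32B. The knockdown library was thus the higher in Kasumi-1, by 367 bases or 1.14-fold, and had no peak in MV4-11. Within 1000 bases of the start the Kasumi-1 libraries did not differ (0 bases). HDAC1 and HDAC7 were the 2 of 5 genes whose promoter bases were lower in MV4-11 by at least 1.5-fold, against 45.0% of all genes, and both lost every promoter peak, against 24.4% of genes with one in the MV4-11 control. With only peaks of at least 1000 bases, HDAC7 had no promoter bases in either MV4-11 library, and the genes past the fold were HDAC1 and HDAC3. None of the 5 was higher by that fold, against 7.28%.

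HDAC7 had the most covered region of the 10 genes in all 4 libraries, with 14172 bases in the Kasumi-1 control (6 peaks), 15469 in Kasumi-1 sh-ANP32B (7), 9165 in the MV4-11 control (7) and 7664 in MV4-11 sh-ANP32B (6), of which 4810, 5545, 4674 and 5169 lay in the flanks, at SLC48A1. A peak in intron 1 over 2 further transcript starts of HDAC7, with its centre 6.23 to 6.59 kb from the canonical start, was present in every library at 3204, 3271, 2114 and 1743 bases. It remained in MV4-11 sh-ANP32B, in which the canonical start had none. Further into intron 1 a peak of 3001 bases in the Kasumi-1 control and 3236 in Kasumi-1 sh-ANP32B faced peaks of 852 and 289 bases in the MV4-11 control and one of 449 bases in MV4-11 sh-ANP32B. In the gene body alone, MV4-11 had 4491 bases in NC and 2495 in sh-ANP32B, past 1.5-fold, while the region sum was 1.20-fold lower. Scaled to covered length, the region difference in MV4-11 changed from -1501 to 134 bases.

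HDAC9, a class IIa enzyme that also has a short form without the catalytic domain, lies on chromosome 7 from 18086949 to 19002416 on the plus strand (ENSG00000048052.25), with its canonical start at 18495749 inside the gene. Region bases were 0 in both Kasumi-1 libraries, whose nearest peak to the gene was 146 kb away, and 2110 and 3434 in the control and knockdown libraries of MV4-11. No peak was in the promoter window of any library. The 3 peaks of the MV4-11 control were 509 bases wide at -334 kb from the canonical start, 862 bases wide at -178 kb and 739 bases wide in intron 8, 143 kb downstream. In MV4-11 sh-ANP32B the first was absent, the second was 285 bases, the one in intron 8 was 1210 bases, and a pair of peaks of 931 and 1008 bases lay in intron 21, 366 and 371 kb downstream. The knockdown library was thus the higher by 1.63-fold. HDAC8 and HDAC9 were the 2 of 8 genes whose region bases were higher after knockdown in MV4-11 by at least 1.5-fold or from 0, against 8.30% of all genes, and with 1 common minimum width and joining gap for all lists neither passed.

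HDAC4, a class IIa enzyme that binds MEF2 factors in muscle and bone, lies on chromosome 2 from 239048168 to 239401654 on the minus strand (ENSG00000068024.18), and its 353 kb held no peak in any library. The nearest peak to its start was 62.3 to 63.6 kb away. A region without a peak in any library was found for 33.6% of all genes and for 36.1% of the 826 genes of 300 kb or more.

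**Figure D3:**
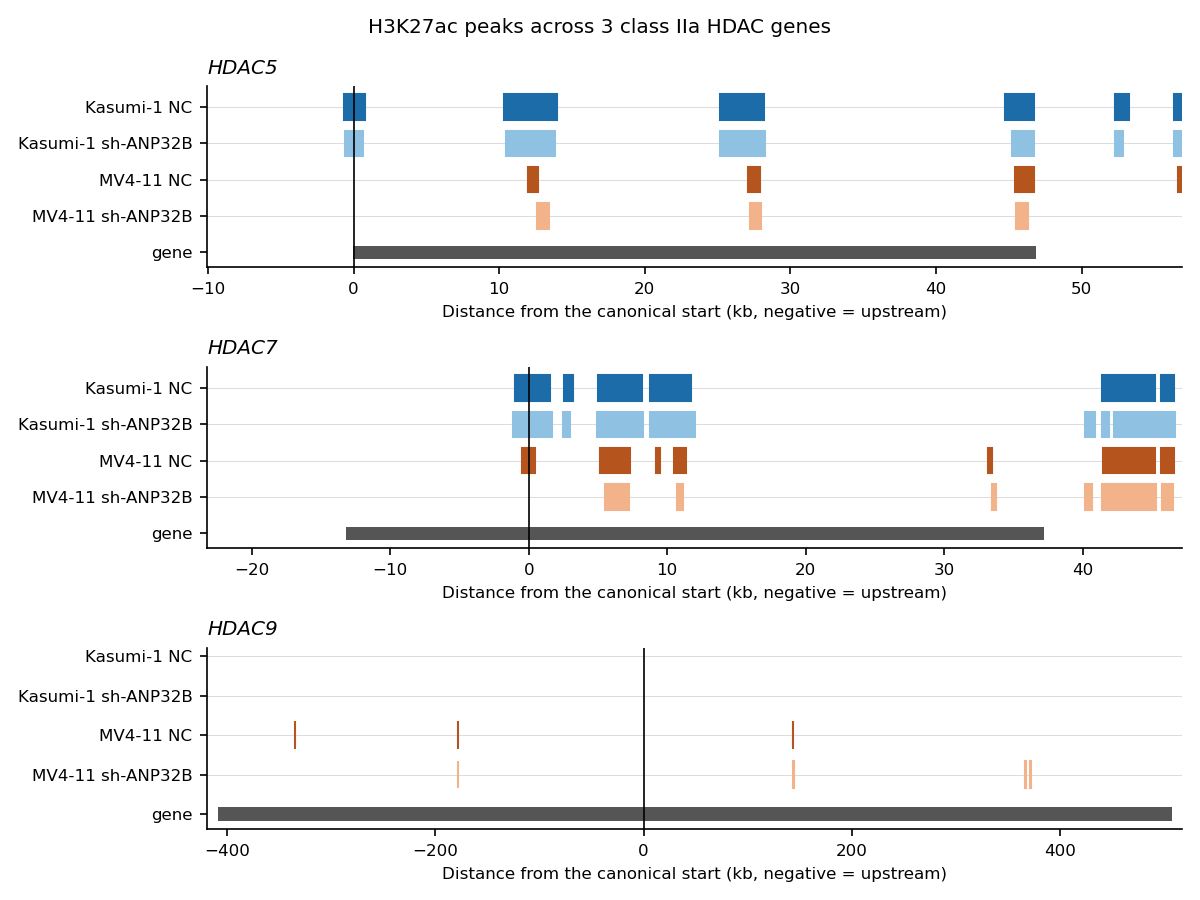
H3K27ac peaks (bars) across HDAC5, HDAC7 and HDAC9 by distance from the canonical start in kb (x axis, negative upstream), with 1 line for each library and the gene body as a dark bar. The HDAC5 start has a peak only on the Kasumi-1 lines, the 3 peaks within HDAC5 and the widest intron 1 peak of HDAC7 are wider on the Kasumi-1 lines, and HDAC9 has peaks only on the MV4-11 lines.

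HDAC6, a class IIb enzyme that deacetylates tubulin in the cytoplasm, lies on chromosome X from 48801377 to 48824982 on the plus strand (ENSG00000094631.22). Its only peak covered 2426 bases in the Kasumi-1 control, 2243 in Kasumi-1 sh-ANP32B, 384 in the MV4-11 control and 291 in MV4-11 sh-ANP32B. Each sh-ANP32B library was lower than its control, 1.08-fold in Kasumi-1 and 1.32-fold in MV4-11, and both MV4-11 values lay below both Kasumi-1 values. The control libraries differed 6.32-fold, the largest fold between the lines among the genes with promoter bases in both. In Kasumi-1 the peak reached from 1440 and 1464 bases upstream to 985 and 778 downstream of the start, and in MV4-11 it began 20 bases (NC) and 97 bases (sh-ANP32B) past the start and ended 403 and 387 bases past it. By width the peaks stood at the 85.8th and 83.6th percentile in Kasumi-1 and at the 13.0th and 2.52nd in MV4-11. The MV4-11 sh-ANP32B peak was narrower than the smallest peak of either Kasumi-1 list. The gene lies next to GATA1, an erythroid factor with no promoter peak in any library, and the bases counted in the GATA1 region (2426, 2243, 384 and 291) equalled those of this peak, a match looked up after the values were seen.

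HDAC11, the class IV enzyme, which removes fatty acyl groups, lies on chromosome 3 from 13479724 to 13506424 on the plus strand (ENSG00000163517.15). It had no peak in its region in any library, and the nearest peak to its start was 58.7 to 59.1 kb away. HDAC4 and HDAC11 were the 2 genes with no peak in any region and library.

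**Figure D4:**
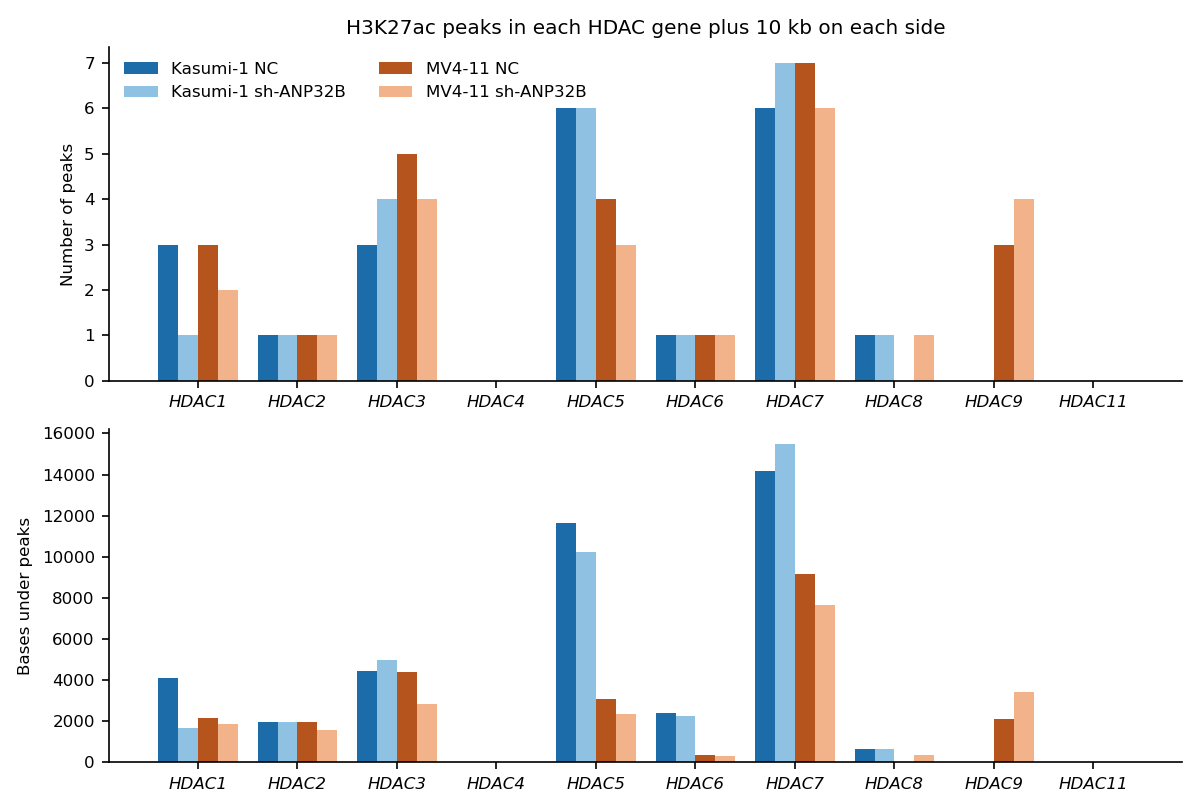
Number of H3K27ac peaks (upper panel) and bases under them (lower panel, both linear from 0) in each HDAC gene plus 10 kb on each side, with 1 bar for each library. HDAC5 and HDAC7 hold the most bases in Kasumi-1, HDAC7 has 6 or 7 peaks in every library, and HDAC9 has 3 and 4 peaks in MV4-11 only.

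Over the 10 regions together, the number of peaks was alike (21, 21, 24 and 22 in the Kasumi-1 control, Kasumi-1 sh-ANP32B, MV4-11 NC and MV4-11 sh-ANP32B) while the covered bases were not (39361, 37270, 23287 and 20367). The median peak width was 1953, 1482, 815.5 and 758 bases in the same order. The share of these peaks without an overlapping peak in the other library of the line was close to that over all peaks. In Kasumi-1, 2 of 21 were lost (9.00% over all peaks) and 2 of 21 gained (13.2%), the gained ones being 699 bases in the HDAC3 flank and 687 in the HDAC7 flank. In MV4-11, 6 of 24 were lost (29.1%) and 4 of 22 gained (17.7%).

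The knockdown libraries were compared with their controls over all HDAC genes with bases in both. In Kasumi-1 the median log2 ratio of promoter bases was -0.02 over 7 HDAC genes and 0.00 over all genes. In MV4-11 it was -0.32 over HDAC2, HDAC3 and HDAC6 and -0.27 over all genes, and HDAC1 and HDAC7 stood outside this median because they had no bases after knockdown. For region bases in MV4-11 it was -0.32 over 7 HDAC genes and -0.30 over all. The MV4-11 sh-ANP32B list covered 23004402 bases and that of the MV4-11 control 27891707, and the part of this difference in the values of the HDAC genes was not tested.

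**Figure D5:**
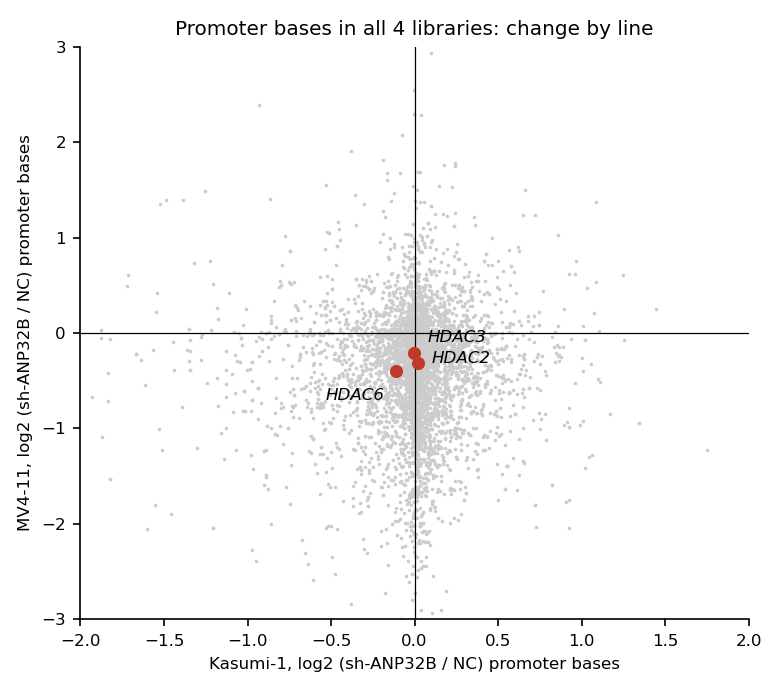
Log2 ratio of promoter bases, sh-ANP32B over NC, in Kasumi-1 (x axis) and MV4-11 (y axis) for the 5181 genes with promoter bases in all 4 libraries (grey points, 15 outside the axes) and for HDAC2, HDAC3 and HDAC6 (red). The 3 HDAC genes lie between -0.11 and 0.02 on the Kasumi-1 axis and between -0.40 and -0.21 on the MV4-11 axis, within the cloud of all genes.

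Between the control libraries, 5 of 7 HDAC genes with promoter bases (HDAC1, HDAC5, HDAC6, HDAC7 and HDAC8) were lower in MV4-11 by at least 1.5-fold or at 0, against 61.9% of all genes, and none was higher, against 5.84%. HDAC5 and HDAC8 were the 2 of 7 with no promoter peak in the MV4-11 control, against 27.9%. HDAC2 and HDAC3 differed by 25 and -231 bases (MV4-11 NC minus Kasumi-1 NC). The median log2 ratio was -1.44 over the 5 HDAC genes with bases in both and -0.58 over all genes. The same 5 of 8 genes were lower in their regions, against 51.0% of all genes, and HDAC9 alone was higher, against 14.7%. HDAC7 was close to the threshold at 1.55-fold and did not pass it when scaled to covered length, which left 4 regions lower. Between the knockdown libraries, the same 5 of 7 promoters were lower in MV4-11, against 74.2% of all genes, with 4 of 7 at 0 (HDAC1, HDAC5, HDAC7 and HDAC8), against 39.9%, and none higher, against 5.00%. In the regions 5 of 8 were lower there (HDAC3, HDAC5, HDAC6, HDAC7 and HDAC8), against 64.9%, and HDAC9 was higher, against 11.6%. The lines differ in origin and libraries, so line and library cannot be told apart.

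Genes for partners of the HDACs and for the sirtuins, 46 in all, were counted in the same windows. Promoter peaks were present at 42 in the Kasumi-1 control, 39 in Kasumi-1 sh-ANP32B, 33 in the MV4-11 control and 28 in MV4-11 sh-ANP32B, where 47.7%, 45.3%, 35.8% and 28.6% of all genes had one. In Kasumi-1, 8 of 42 were lower by at least 1.5-fold, against 14.6% of all genes, and 0 higher, against 4.86%. In MV4-11, 14 of 34 were lower, against 45.0%, and 1 higher, against 7.28%. Of the genes for corepressor subunits that work with HDAC3, NCOR1, TBL1X, TBL1XR1 and GPS2 had a promoter peak in all 4 libraries, as HDAC3 did. None of these was lower by that fold in Kasumi-1, and in MV4-11 TBL1XR1 was, from 2939 to 1917 bases.

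Of the 9 NuRD genes, 8 had a peak in both Kasumi-1 libraries, 7 in the MV4-11 control and 5 in MV4-11 sh-ANP32B, and 2 of 8 were lower in Kasumi-1, against 14.6% of all genes, and 5 of 7 in MV4-11, against 45.0%. GATAD2A, a zinc finger subunit, had 1907 and 960 bases in the control and knockdown libraries of Kasumi-1 and 767 and 0 in MV4-11, and MTA3 had 906 and 477, then 783 and 0. Both thus had fewer bases in the knockdown library of each line, like HDAC1. MTA2 and MBD3, also of NuRD, were lower in both lines too, past 1.5-fold only for MBD3 in MV4-11. CHD4, the remodelling ATPase, had 1877 bases in the control and 2224 in the knockdown library of Kasumi-1, but 801 and 403 in those of MV4-11, and MTA1 had 3047 and 3303 bases, then 1934 and 817, so that the direction differed between the lines with no test of the difference. Of the histone chaperones shared with SIN3, RBBP7 had 391 bases in the MV4-11 control and 0 in sh-ANP32B, and RBBP4 1508 and 1449.

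Among 10 SIN3 genes, 1 of 9 with promoter bases was lower in Kasumi-1 (BRMS1, from 853 bases to 0), against 14.6% of all genes, and 2 of 7 in MV4-11, against 45.0%. These were SAP30 and ING1, the latter from 1629 to 282 bases, the largest fall by log2 ratio of the list in that line at -2.53. The scaffold SIN3A had 3651 bases in the control and 2571 in the knockdown library of Kasumi-1 (log2 -0.51), but 1480 and 1735 in those of MV4-11 (log2 0.23). ARID4A had 2357 and 2425 bases in Kasumi-1, then 488 and 571 in MV4-11 (log2 0.23). Of 7 CoREST genes, 6 had peaks in both Kasumi-1 libraries and 3 in both MV4-11 libraries. KDM1A, the histone demethylase of CoREST, had 1046 and 1238 bases in Kasumi-1 and none in MV4-11. The MiDAC gene TRERF1 had 670 bases in the MV4-11 control and 0 in sh-ANP32B.

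Of the 3 MEF2 genes, to whose products class IIa HDACs bind, MEF2D was covered over 5001, 5001, 5001 and 3496 bases in the 4 libraries, the whole window in the first 3. MEF2A had 854 bases in the MV4-11 control and 0 in sh-ANP32B, and MEF2C had 482 bases in the Kasumi-1 control and none in its knockdown library, and 322 in MV4-11 sh-ANP32B and none in its control. Among 7 sirtuin genes, 3 of 6 with promoter bases were lower in Kasumi-1 (SIRT1, SIRT2 and SIRT3), against 14.6% of all genes, and 1 of 4 in MV4-11 (SIRT1, from 513 bases to 0), against 45.0%. SIRT2 had 398 bases in the Kasumi-1 control and none in the other libraries, and SIRT4 had none in any. The remaining genes with the largest rises by log2 ratio were CHD4 and KDM1A (0.24 each) and SAP18 (0.14) in Kasumi-1 and CHD3 (0.17) in MV4-11, all under 1.5-fold.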

How the data were processed

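H3K27ac CUT&Tag libraries of Kasumi-1 and MV4-11 with NC or sh-ANP32B, 1 peak list for each group, were used. The authors aligned reads to hg38, removed duplicates with Picard, merged replicates with samtools and called peaks at a q-value of 0.01. The submitters' processing notes name Bowtie2 2.4.4 and MACS3 3.0, whereas the methods of the study name another Bowtie2 version and MACS2. Use of IgG as control is not given in the sources used here. The deposited lists hold positions and widths of peaks in bases, with no height, read count or score, so depth and counting error are unknown. Smallest widths differed between lists, down to 275 bases in MV4-11 sh-ANP32B against 357 in Kasumi-1 NC, which bears on counts of narrow peaks.

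Canonical starts came from GENCODE v44 for 20007 protein-coding genes, 1 for each symbol. Bases under peaks were summed with Python 3.11.15 and numpy 2.4.6 and drawn with matplotlib 3.10.9, and the sums were tested on simulated peaks. A gene was called where bases differed by at least 1.5-fold or were 0 in 1 library, among genes with bases in either. No statistical test was possible with 1 library in each group. All 10 HDAC genes are named, with those partner genes that lost or gained all promoter bases or had the 3 largest falls or rises in a line, and others as examples chosen after their values were seen. Some genes of the lists are counted but not reported here by name. The HDAC genes and lists were chosen with earlier results of these data known. The 10 alternatives changed the window, starts, flank, peak width, joining, overlap, scaling and fold.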

Additional observations from a re-analysis of the deposited data

Results flagged for a closer look

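For 4 HDAC genes the sh-ANP32B library differed from its control in opposite directions in the lines, with 1 library in each group, and these differences were not tested. HDAC2 promoter bases, the same as its region bases, differed by 27 in Kasumi-1 and by -390 in MV4-11. Scaled to the covered length of each library they differed by -26.5 and -55.3, the same direction in both lines. HDAC3 region bases differed by 540 in Kasumi-1 and by -1580 in MV4-11. HDAC7 promoter bases differed by 367 in Kasumi-1 and by -936 in MV4-11, and its region bases by 1297 and by -1501. Within 1000 bases of the start the Kasumi-1 promoter difference was 0, and with only peaks of at least 1000 bases the MV4-11 promoter difference was 0. Scaled to covered length the region differences were 766 and 134, both higher. HDAC8 region bases differed by -9 in Kasumi-1 and by 340 in MV4-11, where the 340 bases were 1 narrow peak in intron 4, and the latter difference was 0 with a common minimum width. The differences in Kasumi-1 were under 1.5-fold at each of these genes.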

How the results depend on the processing

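Of 128 counts recomputed under 10 alternatives, 111 stayed within 1.5 times the value reported and 17 did not. A count could stay while the genes in it changed. Among 280 values of single genes, 248 did not move by more than the limits used and 32 did, with 0 calls reversed. With a window of 1000 bases, 0 HDAC promoters were lower in Kasumi-1 and 3 partner promoters higher in MV4-11. With the starts of all annotated transcripts, 5 partners were lower in Kasumi-1 and 0 higher in MV4-11. With no flank, 2 HDAC regions were lower in MV4-11 (HDAC1 and HDAC7, not HDAC3). With a flank of 50 kb, 0 were lower in Kasumi-1, and the 1 lower in MV4-11 was HDAC1, not HDAC3. With only peaks of at least 1000 bases, 2 regions were lower (HDAC3 and HDAC5) and 1 higher (HDAC9) in MV4-11, and 0 higher in MV4-11 NC than in Kasumi-1 NC. With 1 common minimum width of 357 bases and joining gap of 358, 2 regions were lower (HDAC3 and HDAC6) and 0 higher in MV4-11, and 0 partners higher there. With at least 50% of a peak required in the window, 1 partner was higher in Kasumi-1 (SIRT7) and 2 in MV4-11. Scaled to covered length, 0 regions were lower in MV4-11. With a lower fold for a call, 13 partners were lower in Kasumi-1 and 3 HDAC regions in MV4-11. The cause of these moves was not tested.

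No paired analysis was possible because each group had 1 list with merged replicates and no replicate numbers, and for the same reason no replicate was left out. Depth is unknown, so a gene without a peak is one in which no peak was called, and peak width is not signal strength. Narrow MV4-11 peaks, such as that of HDAC6 in sh-ANP32B (291 bases), were below the smallest width called in Kasumi-1 NC (357 bases).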
